A study of Rattus norvegicus with 8 samples.

Results

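Actg2-high cells were cells from rat fracture callus that carried at least 5 transcripts of Actg2, the gene of the gamma actin of enteric smooth muscle. Each captured transcript bears a unique molecular identifier (UMI), and a cell was considered when it held at least 5000 UMIs in all. In the 8 libraries together, 5384 cells met both thresholds, which was 8.26% of the 65208 cells with at least 5000 UMIs and 7.73% of the 69624 barcodes. They were set against 49582 Actg2-zero cells, which came from the same libraries, met the same minimum depth and held 0 UMIs of Actg2. The other 10242 cells held 1 to 4 UMIs of Actg2. The cells were chosen by their measured Actg2 UMIs and total UMIs, so the level of Actg2 and the share of Actg2-high cells are given as descriptions without a test.

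The tissue was the callus that forms around a closed fracture of the femur in Sprague Dawley rats. Cells released by collagenase A during 4 h spent 24 h in a dish before library preparation, so the measured cells were those recovered after culture. The 4 treatments were zoledronate with magnesium, zoledronate with CGRP (calcitonin gene-related peptide, a neuropeptide), zoledronate alone and no drug (control), each sampled at week 12 and at week 4 after fracture. Zoledronate, a bisphosphonate that slows bone resorption, had been injected under the skin weekly at 0.3 mg/kg during the 12 weeks that preceded the fracture, so the magnesium and CGRP rats had received it too. The labels name a stainless steel nail and a magnesium-containing nail without saying which group had which, and the dose of CGRP and the number of animals behind a library were not stated there. Each treatment at each week was 1 library, so differences between treatments or weeks are given as values without a test. The difference between Actg2-high and Actg2-zero cells was tested over the 8 libraries, and its error therefore covers the spread over treatments and weeks.

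Smooth muscle cells and myofibroblasts contract when myosin motors pull on actin filaments. Myosin light chain kinase turns the motor on by phosphorylating its regulatory light chain, a myosin phosphatase turns it off, and calponin, caldesmon and the tropomyosins adjust the filament. Many of these genes are known targets of serum response factor (SRF) and its partner myocardin, which act through a DNA element named the CArG box, and transforming growth factor beta (TGF beta) is a known inducer of this set of genes in healing wounds.

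The upstream sequences of 3 genes that were higher in Actg2-high cells are shown as examples, picked because they hold this element or a close variant. They are the 250 bases before the annotated start, 5′ to 3′ on the gene's strand, from RefSeq on the GRCr8 assembly, and capitals mark each CArG box or variant with 1 C or G inside its core; the box is CC, a core of 6 bases that are A or T, and GG.
Acta2, chr1:241172504-241172753, minus strand: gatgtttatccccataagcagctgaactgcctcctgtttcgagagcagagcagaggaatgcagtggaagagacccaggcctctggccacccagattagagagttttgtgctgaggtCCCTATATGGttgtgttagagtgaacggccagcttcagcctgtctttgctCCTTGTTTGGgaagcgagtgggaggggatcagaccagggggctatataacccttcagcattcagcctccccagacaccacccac
Acta1, chr19:68784195-68784444, minus strand: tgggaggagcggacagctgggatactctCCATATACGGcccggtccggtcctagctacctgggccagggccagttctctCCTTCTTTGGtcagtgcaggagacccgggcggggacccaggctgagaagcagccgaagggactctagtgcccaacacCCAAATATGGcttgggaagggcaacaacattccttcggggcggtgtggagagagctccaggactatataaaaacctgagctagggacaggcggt
Itgb1bp2, chrX:70612271-70612520, plus strand: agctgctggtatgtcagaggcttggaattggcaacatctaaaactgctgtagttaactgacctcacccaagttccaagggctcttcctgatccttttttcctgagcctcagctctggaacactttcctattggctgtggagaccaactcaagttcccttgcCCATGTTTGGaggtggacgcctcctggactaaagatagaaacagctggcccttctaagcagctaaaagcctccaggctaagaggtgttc

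The Acta2 stretch held 2 such sites, which began 134 and 84 bases before the start. Acta1 held 3, beginning 222, 171 and 94 bases before the start, and the nearest of these was an exact CArG box. Itgb1bp2, which encodes melusin, a muscle protein that binds the beta 1 integrin tail, held 1 site 89 bases before its start. Both strands were searched over 300 bases, 250 before and 50 after the start, in 33469 RefSeq promoters. An exact CArG box lay in 1.64% of them and an exact or variant site in 9.42%. Among 8523 promoters of the genes tested between the classes, these shares were 1.29% and 8.20%. Among Actg2 and the 35 genes called higher, 28 had a promoter in the table, of which 3 (10.7%) held an exact box and 7 (25%) an exact or variant site. Of 26 promoters found for the 36 genes called lower, 0 held an exact box and 3 (11.5%) an exact or variant site. Of the 20 genes of the contractile list, 16 had a promoter to search, with 17 promoters between them. Of those promoters, 0 held an exact box and 2 (11.8%) an exact or variant site, near the share of all promoters. Myh11, Tagln, Myl9 and Lmod1 were not among the 16 genes, so these values do not cover them. Cnn1, Mylk and Ppp1r14a were searched and held 0 of either kind. The exact boxes were in Acta1, Fbxl22 and RT1-T24-3. The Actg2 window also held 0 matches, but its annotated start lies close to the start codon, so the window may not cover the bases upstream of the first exon.

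Total UMIs per library were between 141264724 and 160177900. The median Actg2-high cell held 14052.5 to 20696 UMIs by library and the median Actg2-zero cell 12553.5 to 20462 UMIs, the Actg2-high median being above the Actg2-zero median in every library except control at week 12, where it was 16129 against 17235.5. Ribosomal protein genes took 21.0 to 25.5% of UMIs in Actg2-high cells and 22.8 to 27.2% in Actg2-zero cells, and were lower in Actg2-high cells of each library. Cells over 40000 UMIs made up at most 2.57% of Actg2-high cells and at most 1.65% of Actg2-zero cells in any library. Any pair of libraries shared 13 to 31 cell barcodes, and 85 Actg2-high cells had a barcode that also occurred in another library. With those barcodes left out the test between classes called 35 genes higher and 34 lower, against 35 and 36 with them.

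Actg2 was rare in most callus cells and concentrated in the chosen ones. Within a library the Actg2-high cells held 69.7 to 89.2% of all UMIs of Actg2, at a median of 9 to 14 UMIs per cell. Over all of them the median was 12 and the highest value 460 UMIs. Low counts prevailed: 2047 cells (38.0%) had 5 to 9 UMIs and 426 (7.91%) had 50 or more. The level in the summed Actg2-high cells was 772 to 1283 CPM by library (CPM being UMIs per 1000000 UMIs of the sum).

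Actg2-high cells were less frequent at week 12 than at week 4 under every treatment. In magnesium callus they made up 7.78% of cells at week 12 (95% Clopper-Pearson interval 7.20 to 8.38%) and 15.5% at week 4 (14.6 to 16.3%). In CGRP callus the share was 2.53% (2.23 to 2.85%) at week 12 and 9.0% (8.38 to 9.65%) at week 4. Zoledronate callus had 8.88% (8.31 to 9.48%) at week 12 and 12.1% (11.4 to 12.9%) at week 4, and control callus had 4.02% (3.60 to 4.49%) at week 12 and 8.59% (7.94 to 9.28%) at week 4. Zoledronate callus therefore had the larger share than control at both weeks, and CGRP callus the smaller share than zoledronate at both weeks. Magnesium callus lay below zoledronate at week 12 and above it at week 4. The intervals cover counting error only, not animals or dishes, and library depth moved with these shares: median UMIs of Actg2-zero cells were lower at week 12 than at week 4 in all 4 treatments.

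When each cell was thinned to 5000 UMIs and at least 2 UMIs of Actg2 were required, the order of the weeks was kept in all 4 treatments. The thinned shares at week 12 and week 4 were 6.64% and 13.1% in magnesium, 2.91% and 7.87% in CGRP, 8.35% and 10.4% in zoledronate, and 3.92% and 7.15% in control. Among cells of 15000 to 25000 UMIs alone, the shares were 8.24% and 14.5%, 3.11% and 9.90%, 9.71% and 12.2%, and 3.80% and 8.35% in the same order of treatments and weeks. Actg2 summed over all barcodes was likewise lower at week 12 than at week 4, with 89.1 and 186 CPM in magnesium, 33.0 and 106 CPM in CGRP, 127 and 136 CPM in zoledronate, and 60.1 and 80.7 CPM in control. In such a sum, fewer cells of a kind and less RNA per cell cannot be told apart.

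**Figure D1:**
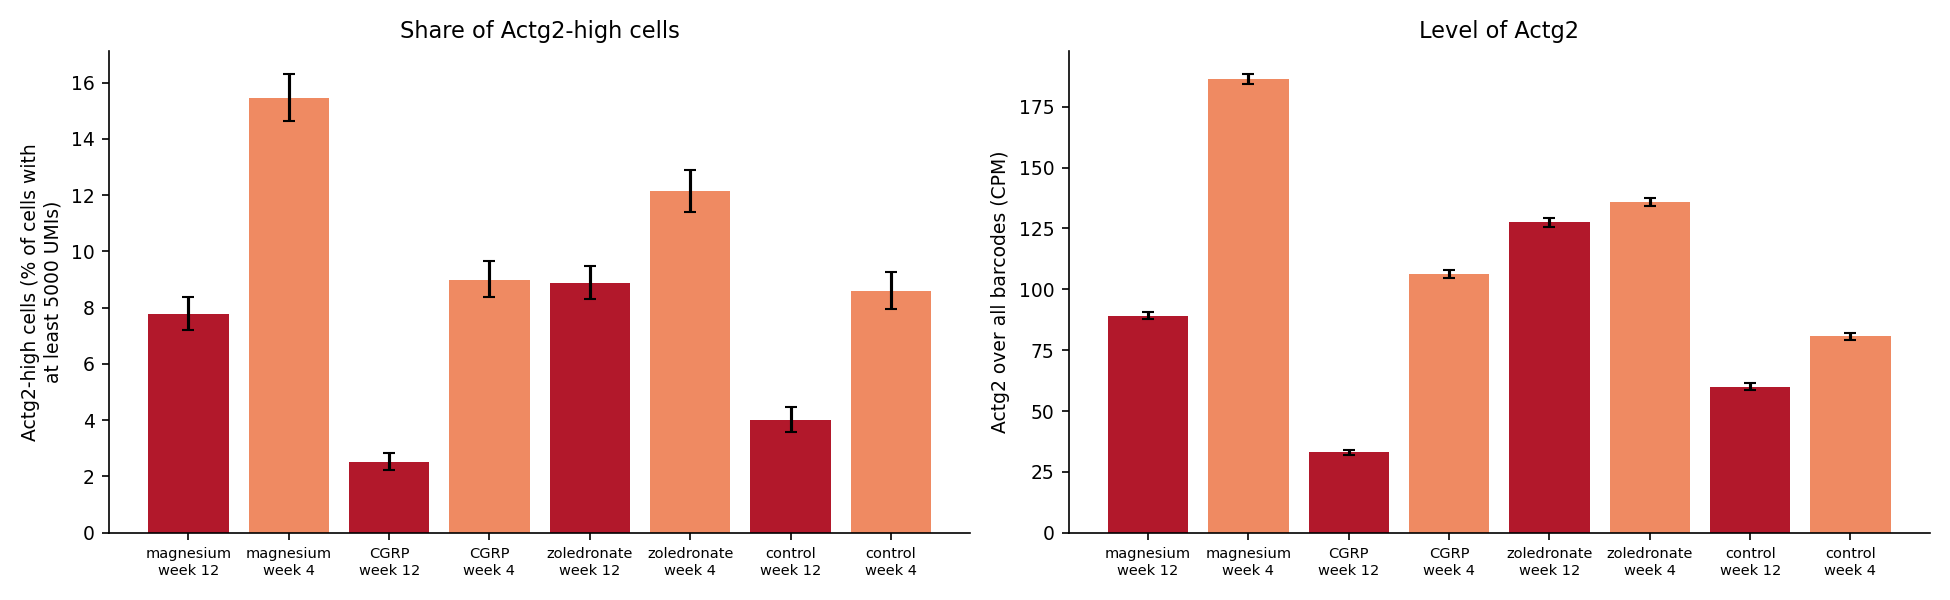
Left, Actg2-high cells as a percentage of cells with at least 5000 UMIs in each library, with 95% Clopper-Pearson intervals; right, Actg2 over all barcodes in CPM, with 95% Poisson intervals. Dark bars are week 12 and light bars week 4, 1 library each; magnesium at week 4 is highest (15.5%, 186 CPM) and CGRP at week 12 lowest (2.53%, 33.0 CPM).

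Actg2-high cells carried more of the other contractile genes than Actg2-zero cells of the same library. UMIs were summed per library and class, Actg2 was left out, and the 16 sums were compared with edgeR's quasi-likelihood test with library as a block and Benjamini-Hochberg adjustment over 10333 genes. A gene was called when its adjusted p was under 0.05 and its levels differed at least 1.5-fold. In all, 35 genes were called higher (0.339% of those tested) and 36 lower (0.348%). At an adjusted p under 0.05 whatever the fold, 432 genes were higher (4.18%) and 322 lower (3.12%), and the median log2 fold change over all genes was -0.00. Of the 20 genes listed for smooth muscle contraction, 17 could be tested, 6 were called higher and 0 lower, 15 passed at any fold, all of them higher, and the median log2 fold change was 0.51. In all 8 libraries at once, 14 of the 17 were higher, while 3.76% of all genes were.

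The actins came first by function. Acta2, the alpha actin of vascular smooth muscle and of myofibroblasts, had a lowest, median and highest level of 2774, 4055 and 5669 CPM in Actg2-high cells, against 1408, 2603 and 4006 CPM in Actg2-zero cells. It was higher in 8 of 8 libraries, by 0.68 ± 0.04 on the log2 scale (SE, adjusted p = 1.3e-06), although the ranges of the classes overlapped across libraries. Acta1, the skeletal alpha actin, had 42.7, 131 and 326 CPM in Actg2-high cells, against 23.4, 63.5 and 161 CPM in Actg2-zero cells. Its log2 fold change was 1.12 ± 0.12 (adjusted p = 4.8e-05), again in 8 of 8 libraries. The cytoplasmic actins, which every cell uses, differed less: Actb was higher by 0.23 ± 0.02 (adjusted p = 1.3e-05, 8 of 8 libraries) and Actg1 by 0.15 ± 0.03 (adjusted p = 0.0034, 7 of 8 libraries). Actc1, the cardiac actin, was listed in 1 table and was not tested. The actin genes encode near-identical proteins. How the authors' counting treated any reads common to these genes, or to them and Actg2, bears on these values and was not tested.

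The myosin motor and its switches were higher as well. Myh11, the smooth muscle myosin heavy chain, a marker of mature smooth muscle, had 23.4, 44.9 and 117 CPM as its lowest, median and highest level in Actg2-high cells, against 5.56, 18.9 and 57.1 CPM in Actg2-zero cells. With 1.40 ± 0.13 (adjusted p = 1.9e-05, 8 of 8 libraries) it had the largest log2 fold change of the list. Myl9, a regulatory light chain, stood at 399, 562 and 684 CPM in Actg2-high cells, against 207, 361 and 489 CPM in Actg2-zero cells (0.69 ± 0.05, adjusted p = 1.7e-06). The kinase that phosphorylates it, Mylk, had 8.56, 11.6 and 177 CPM, against 2.24, 6.73 and 109 CPM (0.94 ± 0.13, adjusted p = 0.00063). Its highest levels came from the magnesium library at week 12, with 177 CPM in Actg2-high and 109 CPM in Actg2-zero cells, and the CGRP library at week 12, with 94.3 and 61.4 CPM. Ppp1r14a, an inhibitor of myosin phosphatase, had 105, 152 and 468 CPM in Actg2-high cells, against 33.6, 96.4 and 331 CPM in Actg2-zero cells (0.89 ± 0.12, adjusted p = 0.00036). Each of these genes was higher in 8 of 8 libraries.

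Among proteins of the thin filament, Cnn1, which encodes calponin, had 155, 440 and 1158 CPM in Actg2-high cells, against 45.7, 258 and 741 CPM in Actg2-zero cells. It was higher by 0.96 ± 0.11 (adjusted p = 7.5e-05) in 8 of 8 libraries. Another 4 genes lay just under the 1.5-fold limit. Lmod1, a nucleator of actin filaments in smooth muscle, was higher by 0.57 ± 0.04 (adjusted p = 5.3e-06), and the tropomyosins Tpm2 and Tpm1 by 0.51 ± 0.05 (adjusted p = 2.1e-05) and 0.50 ± 0.03 (adjusted p = 3e-07). Tagln, or transgelin, was abundant in both classes, at 10924 to 16979 CPM in Actg2-high and 7047 to 13016 CPM in Actg2-zero cells, and higher by 0.49 ± 0.03 (adjusted p = 3e-07). Smaller differences that passed belonged to Cald1 (0.29), Pdlim7 (0.29), Flna (0.28), Csrp1 (0.25) and Vcl (0.19), which encode caldesmon, a PDZ-LIM adaptor, filamin A, a LIM protein and vinculin.

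Smtn, or smoothelin, missed the threshold with 0.13 ± 0.04 (adjusted p = 0.080), and was higher in 6 of 8 libraries. Des, the intermediate filament gene desmin, stayed near 0 in both classes, at 0.0674 to 1.82 CPM in Actg2-high cells and 0.0555 to 1.38 CPM in Actg2-zero cells (0.74 ± 0.33, adjusted p = 0.22). Synpo2, Kcnmb1 and Pcp4 were not listed in every table and reached at most 1.08, 0.931 and 0.246 CPM in Actg2-high cells, against at most 0.666, 0.129 and 0.219 CPM in Actg2-zero cells. The label of contractile cells was thus met by higher contractile genes, but desmin was near 0 and the abundant members of the list were also present in Actg2-zero cells. They are called Actg2-high cells here and not smooth muscle cells.

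**Figure D2:**
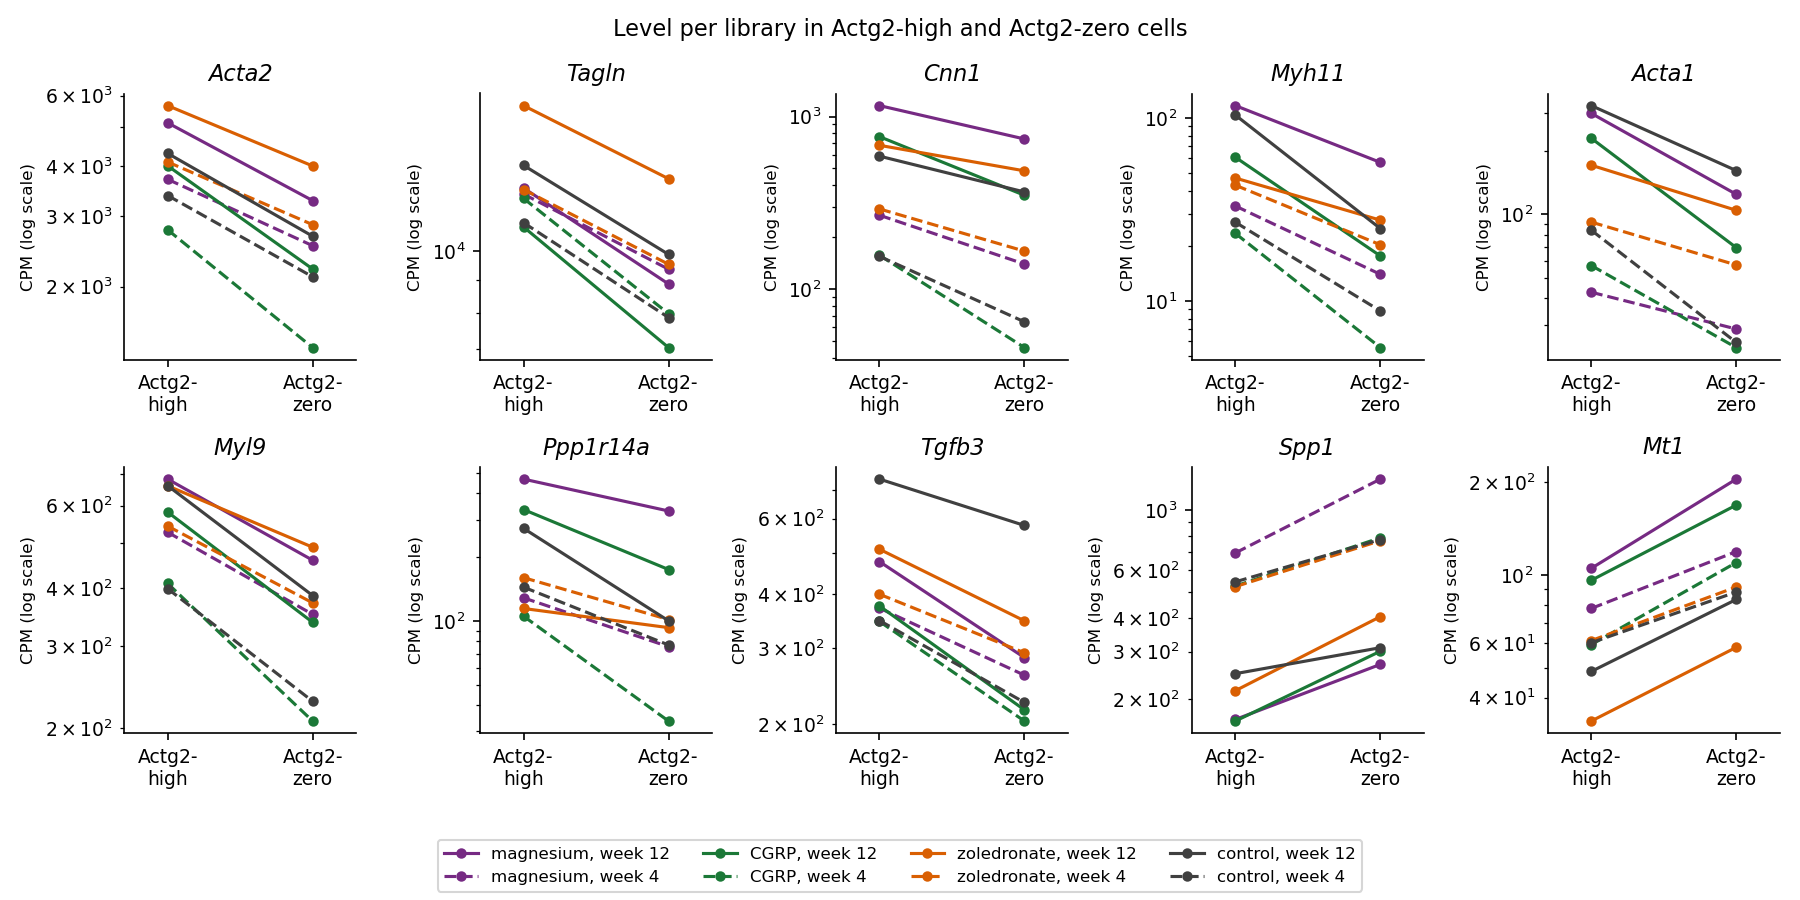
Level (CPM, log axis) of 8 genes called or passing higher and 2 called lower, with Actg2-high cells on the left and Actg2-zero cells on the right of each panel; a line joins the 2 classes of 1 library, solid for week 12 and dashed for week 4. All lines of Acta2, Tagln, Cnn1, Myh11, Acta1, Myl9, Ppp1r14a and Tgfb3 slope down to the Actg2-zero cells and all lines of Spp1 and Mt1 slope up.

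The spread between libraries often exceeded the difference between classes. Cnn1 in Actg2-zero cells of the magnesium library at week 12 (741 CPM) was above Cnn1 in Actg2-high cells of magnesium at week 4 (268 CPM), and the same held for CGRP, zoledronate and control, with 349.5 against 157, 484 against 291 and 365 against 155 CPM. An edgeR fit without the library block made 0 calls in either direction. At an unadjusted p under 0.05 in that fit, 147 of 10333 genes were higher and 85 lower. Of all genes tested, 1 (0.00968%) had levels in the 8 Actg2-high sums that were all above the 8 Actg2-zero sums. That gene, named after its values were seen, was Nexn, which encodes nexilin, an actin-binding protein of muscle, at 72.6 to 90.0 CPM in Actg2-high and 40.7 to 72.3 CPM in Actg2-zero cells (0.52 ± 0.05, adjusted p = 2.1e-05).

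Counted per cell, contractile transcripts were found in more Actg2-high than Actg2-zero cells. After thinning to 5000 UMIs, Myh11 had a UMI in 7.59 to 28.6% of Actg2-high cells by library, against 2.30 to 13.9% of Actg2-zero cells. Cnn1 had one in 33.3 to 95.5%, against 12.7 to 82.4%, and Acta1 in 10.2 to 33.9%, against 5.44 to 24.9%. Without thinning, Myh11 was seen in 17.4 to 51.9% of Actg2-high cells, against 6.16 to 28.3% of Actg2-zero cells. For these 3 genes and Acta2 the share was higher in Actg2-high cells of 8 of 8 libraries, with 95% intervals that did not meet. Those intervals cover counting error over cells only, not animals or dishes. Col1a1, a collagen I chain, had a UMI in 100% of thinned Actg2-high cells and in at least 99.97% of thinned Actg2-zero cells of any library. Pecam1, a gene of endothelial cells, was seen in at most 0.108% of Actg2-high and at most 0.245% of Actg2-zero cells.

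Outside the contractile list, the genes called higher with at least 20 CPM on average and the same direction in 8 of 8 libraries had varied roles. Casq2, the cardiac calsequestrin that binds calcium in the sarcoplasmic reticulum, had 18.8, 36.2 and 95.9 CPM in Actg2-high cells, against 8.78, 18.6 and 72.5 CPM in Actg2-zero cells (0.75 ± 0.11, adjusted p = 0.00091). Lmcd1, a LIM protein, had 12.3, 25.2 and 46.9 CPM, against 7.17, 14.2 and 23.7 CPM (0.76 ± 0.07, adjusted p = 1.5e-05). Adarb1, an RNA-editing adenosine deaminase, was higher by 0.62 ± 0.07 (adjusted p = 4.6e-05), and Serpinb1a, a protease inhibitor of the serpin family, by 0.86 ± 0.11 (adjusted p = 0.00021). Serpinb1a has close paralogs, of which Serpinb6b (0.89 ± 0.13) and Serpinb9 (0.65 ± 0.11, 7 of 8 libraries) were also called higher, and reads shared among them could not be separated here. Without the magnesium library at week 12 the Adarb1 difference was 0.58 and just under 1.5-fold.

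**Figure D3:**
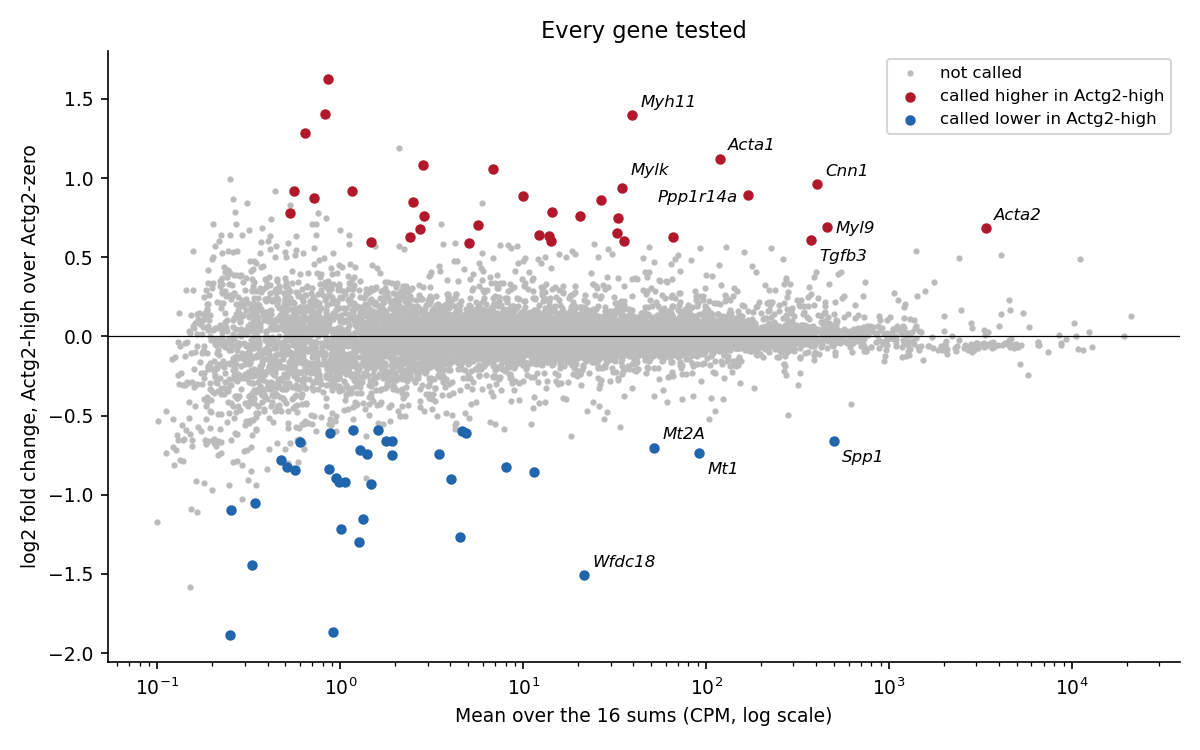
Log2 fold change of Actg2-high over Actg2-zero cells for each of the 10333 genes tested, against the mean level over the 16 sums (CPM, log axis). Red points are the 35 genes called higher, blue points the 36 called lower and grey points the rest; the contractile genes Myh11, Acta1, Cnn1, Mylk, Ppp1r14a, Myl9 and Acta2 lie above the cloud.

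Of the called genes, 13 of the 35 higher and 30 of the 36 lower had a mean under 5 CPM. At such levels few UMIs lie behind the Actg2-high sums, which are much smaller than the Actg2-zero sums. Myocd, the gene of myocardin, was one of them. It had 0.943, 1.76 and 9.85 CPM in Actg2-high cells, against 0.750, 1.02 and 6.27 CPM in Actg2-zero cells (0.76 ± 0.12, adjusted p = 0.0018), and was higher in 7 of 8 libraries. Itgb1bp2 had 1.23, 2.79 and 8.83 CPM, against 0.658, 1.20 and 4.33 CPM (1.08 ± 0.11, adjusted p = 3.9e-05, 8 of 8 libraries). Of the 9 listed regulators of SRF and myocardin, 5 were tested, and Myocd was the 1 that passed. Srf itself had 29.6 to 45.4 CPM in Actg2-high cells and 26.6 to 41.0 CPM in Actg2-zero cells.

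Of 14 tested ligands, receptors and targets of TGF beta, 1 was called higher and 0 lower, and the median log2 fold change was 0.08. The called gene was the ligand Tgfb3, with 346, 388 and 742 CPM in Actg2-high cells, against 203, 272 and 579 CPM in Actg2-zero cells. It was higher in 8 of 8 libraries by 0.61 ± 0.04 (adjusted p = 2.4e-06), and without the CGRP library at week 12 or the one at week 4 the difference was 0.58, just under 1.5-fold. Tgfb1i1, or Hic-5, a focal adhesion protein induced by TGF beta, was higher by 0.20 ± 0.02 (adjusted p = 7.7e-05). The other ligands Tgfb1 and Tgfb2 had log2 fold changes of -0.09 and 0.20 and did not pass, nor did the receptors Tgfbr1 (0.07) and Tgfbr2 (-0.10).

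Genes that anchor actin to the matrix differed mostly towards higher levels, by small amounts. Of 14 tested focal adhesion and integrin genes, 1 was called higher, 7 passed higher and 1 lower at any fold, and the median was 0.18. Itga8, the integrin alpha 8 chain of contractile cells, had 6.71, 15.5 and 32.0 CPM in Actg2-high cells, against 3.53, 8.71 and 21.2 CPM in Actg2-zero cells (0.79 ± 0.14, adjusted p = 0.0040, 8 of 8 libraries). Its largest gap was in control callus at week 12, with 32.0 against 7.43 CPM. Parva, Actn1, Itgb1, Actn4, Ilk and Tln1 were higher by 0.27, 0.25, 0.23, 0.20, 0.16 and 0.14, and Itgb5 lower (-0.17, adjusted p = 0.032). Among 11 targets shared by YAP and SRF, 0 were called and Ctgf (0.16), Zyx (0.16) and Cyr61 (0.16) passed higher.

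The main chains of collagens I and III did not pass the test between classes. Col1a1 had 13975, 18957 and 23072 CPM in Actg2-high cells, against 13011, 19941 and 24141 CPM in Actg2-zero cells, a log2 fold change of 0.01 ± 0.04. Col1a2 (0.00 ± 0.03) and Col3a1 (0.06 ± 0.04) were alike in size. Of 15 matrix genes tested, 1 was called higher, and at any fold 2 passed higher and 4 lower. Fn1 (-0.17), Lox (-0.22), Lum (-0.39) and Dcn (-0.40), which encode fibronectin, lysyl oxidase, lumican and decorin, were the lower ones, and Tnc, or tenascin C, was higher by 0.31 ± 0.07 (adjusted p = 0.010). The called gene was Eln, for elastin (1.63 ± 0.46, adjusted p = 0.047). It had 4.53 CPM in Actg2-high cells against 0.338 in Actg2-zero cells of control at week 4, and 2.97 against 0.477 CPM in magnesium at week 4, and was higher in 4 of 8 libraries. Without control at week 4 the difference was 1.05 (adjusted p = 0.19) and without magnesium at week 4 it was 1.29 (adjusted p = 0.21), and the call was also lost without CGRP at week 12, magnesium at week 12 or zoledronate at week 4 (adjusted p = 0.058, 0.084 and 0.057). Over 18 alternatives of all kinds the Eln difference lay between 0.19 and 2.00, and the call was lost in 8.

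The genes called lower in Actg2-high cells included 4 with a mean of at least 20 CPM, each lower in 8 of 8 libraries, as were 4.1% of all genes tested. Spp1, or osteopontin, a secreted matrix protein of bone-forming and other cells, had 167, 385 and 694 CPM in Actg2-high cells, against 269, 587 and 1298 CPM in Actg2-zero cells (-0.66 ± 0.06, adjusted p = 8.3e-06). The metallothioneins Mt1 and Mt2A, which bind zinc and copper, were lower too (-0.74 ± 0.04, adjusted p = 1e-06, and -0.70 ± 0.05, adjusted p = 4.3e-06), with Mt1 at 33.5, 60.7 and 105 CPM in Actg2-high cells, against 58.2, 100.5 and 205 CPM in Actg2-zero cells. They are close paralogs, and reads common to both could not be separated here. Wfdc18, which encodes a secreted protein with a whey acidic protein domain, had 0.202, 1.28 and 83.7 CPM, against 0.814, 2.88 and 221 CPM (-1.51 ± 0.13, adjusted p = 8.2e-06). Its level was high in 1 library, CGRP at week 12, and control at week 4 showed almost no gap, with 1.614 CPM in Actg2-high and 1.618 CPM in Actg2-zero cells.

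Lower genes of low abundance included Fibin and Fam180a, at medians of 9.31 and 2.93 CPM in Actg2-high cells, against 18.3 and 7.30 CPM in Actg2-zero cells (-0.86 ± 0.08 and -1.26 ± 0.08). Apoe, which encodes apolipoprotein E, was lower (-0.90 ± 0.14), as were the aldo-keto reductases Akr1c14 (-1.22 ± 0.23) and Akr1cl (-1.30 ± 0.24). The chemokine Cxcl1 was lower (-0.93 ± 0.13, adjusted p = 0.00075) in 8 of 8 libraries, the 1 call among 9 stromal chemokines and cytokines tested. Of 10 immediate early genes, 0 were called, 4 passed lower and 1 higher. Fos (-0.28 ± 0.03, adjusted p = 1.8e-05), Fosb (-0.21), Junb (-0.13) and Ier2 (-0.12) were lower, and Ier3 was higher (0.24 ± 0.02). Of 14 genes of the mevalonate and cholesterol pathway, in which zoledronate has its target enzyme, 0 were called and 1 passed, Insig1, a feedback regulator of sterol synthesis (-0.31 ± 0.08, adjusted p = 0.028).

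Some markers of other cell types passed the test between the classes, and some lists differed in single libraries. At any fold, 1 of 4 pericyte and 1 of 3 skeletal muscle markers tested passed higher. Lower were 1 of 6 osteogenic, 1 of 4 adipocyte and 1 of 2 macrophage markers. Of 6 cartilage markers, 1 passed higher and 1 lower, and of 3 endothelial markers 0 passed. Among all genes, 4.18% passed higher and 3.12% lower. In control at week 12, the library with the largest Myh11 log2 ratio (CPM plus 1), the median log2 ratio of Actg2-high over Actg2-zero cells was 0.82 for pericyte markers (4 of 4 higher), 0.82 for cartilage (4 of 6), 0.66 for skeletal muscle (3 of 3), 0.27 for osteogenic genes (5 of 6) and 0.27 for fibrillar matrix (11 of 15). Over all genes it was -0.02. In the other 7 libraries the pericyte median was between -0.13 and 0.26, the cartilage median between -0.22 and 0.05 and the skeletal muscle median between 0.01 and 0.25. There the osteogenic median was between -0.34 and -0.01 and the fibrillar matrix median between -0.09 and 0.04. The endothelial median was 0.45 in CGRP at week 4 (3 of 3 higher) and -0.06 to 0.18 elsewhere. The macrophage median was -0.75 in CGRP at week 12 (0 of 2 higher) and -0.30 to -0.08 elsewhere. The part of these markers in the contractile difference of control at week 12 was not tested, and without that library 37 genes were called higher and 41 lower. Of 10 pericyte markers, 8 were listed in any table and 4 tested, while Rgs5 and Higd1b, which define pericytes, were not listed. The list's summed level was 40.3 to 122 CPM in Actg2-high and 38.0 to 131 CPM in Actg2-zero cells, most of it from Ndufa4l2 and Pdgfrb. Mcam, a surface protein of pericytes and smooth muscle, was the 1 that passed, with 5.15 to 19.6 CPM in Actg2-high cells, against 3.90 to 11.0 CPM in Actg2-zero cells (0.56 ± 0.07, adjusted p = 0.00013). Of 10 skeletal muscle markers, 3 were tested and Acta1 passed, while Ckm, Myog, Myod1 and Ttn were not listed and Mylpf reached at most 2.86 CPM in Actg2-high and 2.49 CPM in Actg2-zero cells.

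Cartilage markers had the largest sum of these lists, most of it from Col11a1, with a summed level of 301 to 2482 CPM in Actg2-high and 310 to 2928 CPM in Actg2-zero cells. Col2a1, the main collagen of cartilage, was listed in 3 tables and reached at most 0.0407 CPM in Actg2-high and 0.0888 CPM in Actg2-zero cells, and Col9a1 at most 0.0813 and 0.0698 CPM. Of the 6 tested, 0 were called, with Sox9, the transcription factor of cartilage, passing higher (0.18 ± 0.03, adjusted p = 0.0046) and Col11a1, a collagen of cartilage fibrils, lower (-0.15 ± 0.02, adjusted p = 0.0013). Among 6 osteogenic genes tested Spp1 was called lower, and Runx2, the transcription factor of osteoblasts, stood at 13.4 to 22.2 CPM in Actg2-high and 15.2 to 21.1 CPM in Actg2-zero cells. Of 3 endothelial and 2 macrophage genes tested 0 were called, although Cd14 passed lower (-0.29 ± 0.05). Most of the endothelial sum, 37.9 to 51.2 CPM in Actg2-high and 37.2 to 52.5 CPM in Actg2-zero cells, was Egfl7, and Cdh5, Emcn and Cldn5 were not listed. Of 10 lymphoid and blood markers 2 were listed in any table, 0 were tested, and their sum was at most 0.0674 CPM in Actg2-high and 0.101 CPM in Actg2-zero cells.

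Among 4 adipocyte genes Fabp4, a fatty acid carrier, was called lower (-1.87 ± 0.49, adjusted p = 0.035). It had 0.438 CPM in Actg2-high against 8.86 CPM in Actg2-zero cells of magnesium at week 12, and without this library the difference was -0.20 (adjusted p = 0.78). The call was also lost without control at week 4 (adjusted p = 0.072), CGRP at week 12 (adjusted p = 0.053) or zoledronate at week 4 (adjusted p = 0.053). Over 18 alternatives of all kinds the Fabp4 call was lost in 7.

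Proliferation did not differ in one direction between the classes. Of 20 cell cycle genes, 0 were called and 0 passed at any fold, and the median log2 fold change was 0.01. By library the median was positive in zoledronate at week 4 (0.33, 18 of 20 genes higher), magnesium at week 4 (0.21, 18 of 20) and CGRP at week 12 (0.02, 11 of 20), and negative in the other 5, down to -0.28 in control at week 12 (0 of 20). Mki67, a marker of cycling cells, had a UMI in 3.28 to 27.3% of thinned Actg2-high cells and in 3.38 to 34.0% of Actg2-zero cells, and was higher in Actg2-high cells of 4 of 8 libraries.

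The contractile genes followed the amount of Actg2 across its whole range, below the threshold as well as above it. Relative to Actg2-zero cells, the median over the 17 tested contractile genes was 0.16 (log2) in cells with 1 to 4 UMIs of Actg2, 0.28 with 5 to 9, 0.44 with 10 to 19, 0.63 with 20 to 49 and 0.91 with 50 or more, the last in 7 libraries with enough cells. For 14 of the 17 genes the median over libraries was higher at each step, the exceptions being Smtn, Des and Vcl. Acta2 stood at a median of 3065, 3468, 3956, 4607 and 5878 CPM in these 5 classes, against 2603 CPM in Actg2-zero cells. Myh11 was above Actg2-zero cells by 0.57, 0.73, 1.03, 1.49 and 2.90. Tgfb3 was above them by 0.24, 0.36, 0.54, 0.76 and 1.20, while Spp1 stood at -0.39, -0.54, -0.58, -0.70 and -1.24. Col1a1 stayed between -0.08 and -0.01 in the medians of all classes. Mki67 was above Actg2-zero cells in the lower classes and below them in the higher ones, at 0.25, 0.17, 0.09, -0.53 and -0.20. It was above them in 8 of 8 libraries with 1 to 4 UMIs of Actg2 and in 2 of 8 with 20 to 49. Median UMIs per cell moved with the classes, at 20366 in cells with 50 or more UMIs of Actg2 and 17659.5 in Actg2-zero cells.

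The threshold of 5 UMIs was not a visible step in the list. In cells with exactly 5 UMIs of Actg2, just inside, the list's median was 0.23 (556 cells), and in cells with exactly 4, just outside, it was 0.24 (714 cells). Acta2 had medians of 3155 and 3213 CPM in these sets, and Myh11 24.7 and 23.2 CPM. The log2 ratio of Myh11 to Actg2-zero cells was 0.29 just inside and 0.79 just outside. When at least 10 UMIs of Actg2 were required, 67 genes were called higher and 61 lower.

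**Figure D4:**
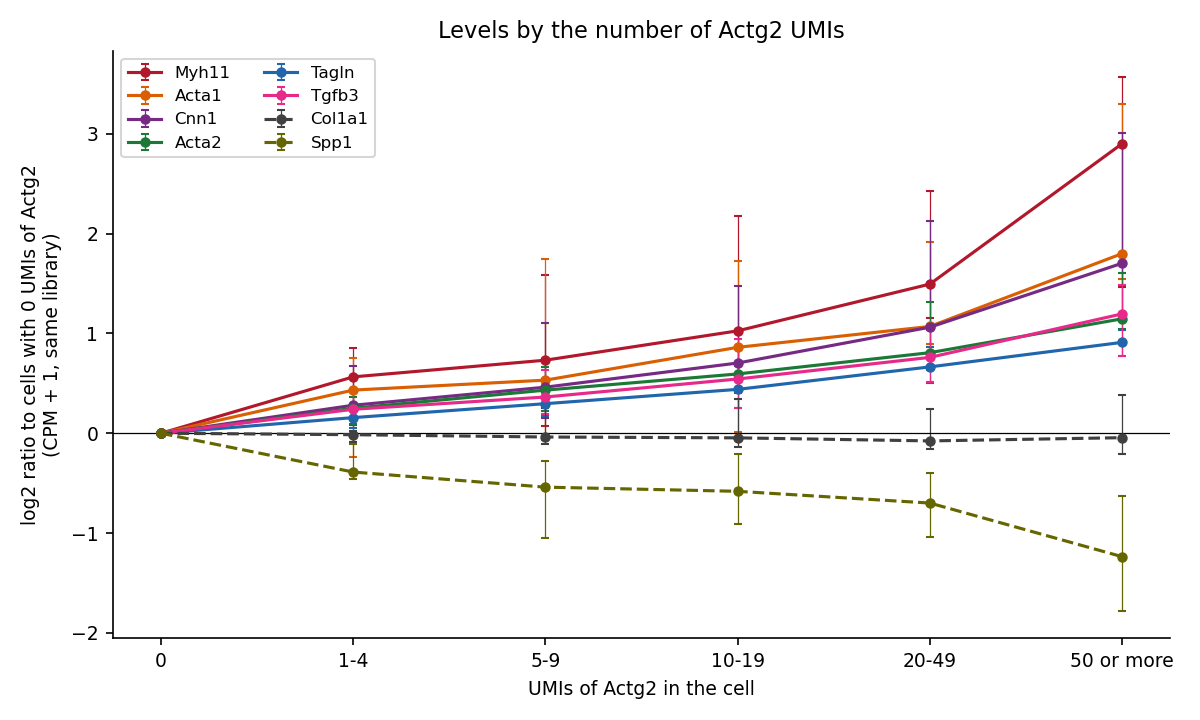
Log2 ratio (CPM plus 1) to Actg2-zero cells of the same library, by the number of Actg2 UMIs in the cell; points are medians over libraries and bars run between the lowest and highest library. Myh11 climbs to 2.90 and Acta2 to 1.15 at 50 or more UMIs, Col1a1 stays near 0 and Spp1 ends at -1.24.

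The difference between classes was present in each library but not of one size. The median log2 ratio (CPM plus 1) over the 17 contractile genes was 0.44 and 0.39 in magnesium at week 12 and week 4, 0.61 and 0.60 in CGRP, 0.38 and 0.39 in zoledronate, and 0.60 and 0.50 in control, while the median over all genes lay between -0.02 and 0.00 in every library. Of the 17 genes, 15 to 17 were higher in Actg2-high cells of each library. By this log2 ratio, Myh11 differed most in control at week 12, with 104 CPM in Actg2-high and 24.8 CPM in Actg2-zero cells. It differed least in zoledronate at week 12, with 46.9 and 27.6 CPM. In the remaining libraries Myh11 stood at 117 and 57.1 CPM in magnesium at week 12, 33.0 and 14.0 in magnesium at week 4, 60.9 and 17.6 in CGRP at week 12, 23.4 and 5.56 in CGRP at week 4, 42.8 and 20.3 in zoledronate at week 4, and 26.9 and 8.81 in control at week 4, with Actg2-high cells given before Actg2-zero cells. Vcl ran the other way in control at week 12 (-0.26) as did Des in zoledronate at week 12 (-0.20) and Smtn in CGRP at week 4 (-0.12).

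**Figure D5:**
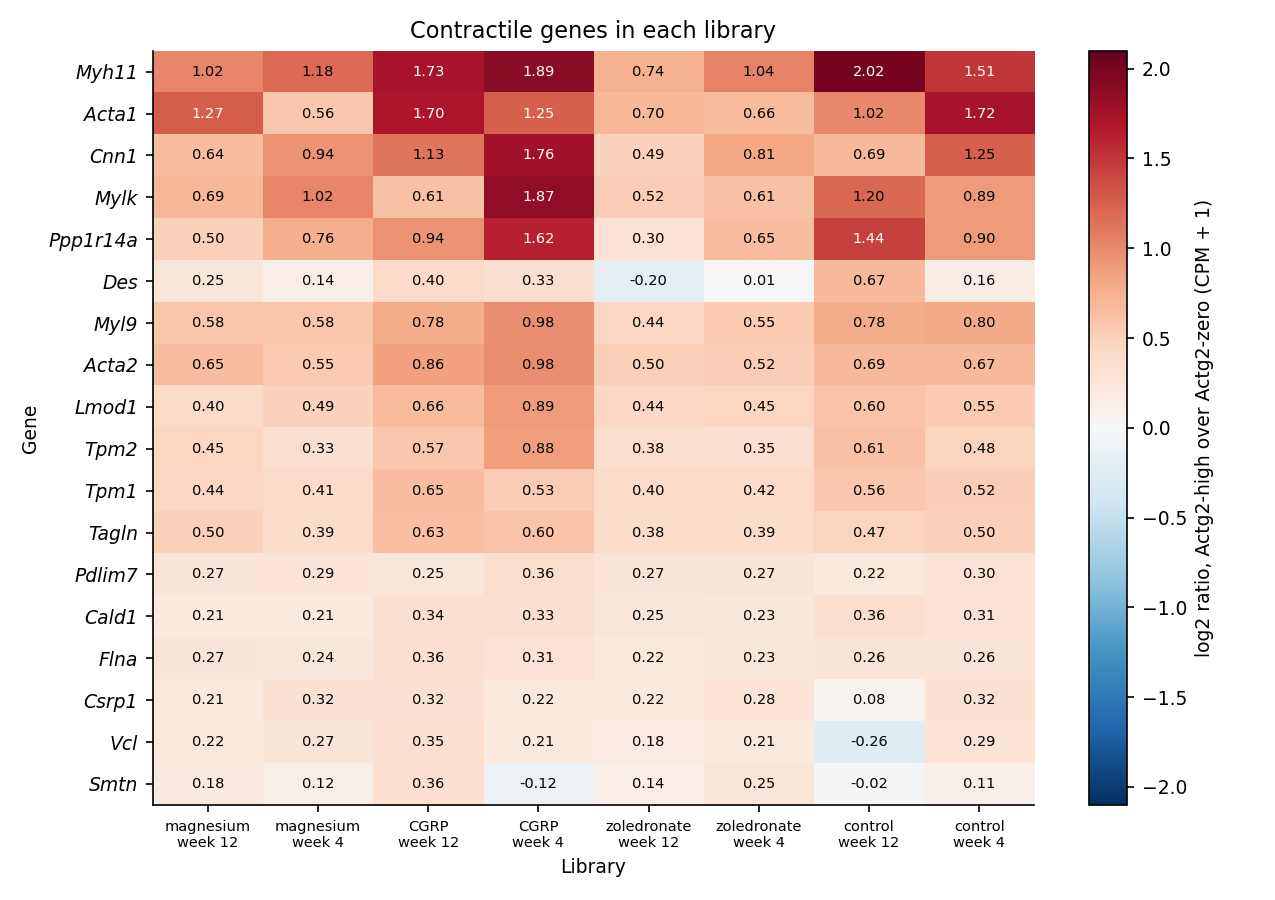
Log2 ratio (CPM plus 1) of Actg2-high over Actg2-zero cells in each library, for the 17 tested contractile genes and Acta1; red is higher in Actg2-high cells. Myh11 ranges between 0.74 (zoledronate, week 12) and 2.02 (control, week 12), and Smtn, Vcl and Des hold the few values below 0.

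Whether the class difference itself differed between week 12 and week 4 was tested as an interaction over the same sums, with the 4 treatments of a week as replicates. In edgeR's quasi-likelihood test 0 of 10333 genes (0.0%) passed at an adjusted p under 0.05. An unadjusted p under 0.05, which was not a call, was found for 473 of the 10333. DESeq2 called 4. The smallest adjusted p was 0.11, shared by Anxa3, Fgf7 and Vcan, which are named after their values were seen. Anxa3, which encodes annexin A3, averaged 0.60 over the week 12 libraries and 0.17 over the week 4 libraries, as log2 ratios of Actg2-high over Actg2-zero cells. The growth factor gene Fgf7 had -0.58 and 0.04, and Vcan, for the proteoglycan versican, -0.08 and 0.22. Of the contractile genes, Cnn1 had the smallest unadjusted interaction p (0.028, adjusted p = 0.997).

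Levels within Actg2-high cells were then set side by side between treatments, as values of 1 library each. A gene was counted when the mean of the 2 libraries compared was 50 CPM or more and their levels differed 1.5-fold or more in the same direction at week 12 and at week 4. These counts describe size only, and the 3 comparisons share the zoledronate libraries. The genes' levels in Actg2-zero cells are not given, so the differences may not be particular to Actg2-high cells. For CGRP over zoledronate, the immediate early list, which includes Fos, had medians of 0.46 and 0.76 at week 12 and week 4. In Actg2-zero cells it had 0.43 and 0.87. For magnesium over zoledronate the medians were 0.41 and 0.93, against 0.49 and 0.82 in Actg2-zero cells. Against control, zoledronate had 1 gene higher of 2260 (0.0442%) and 2 lower (0.0885%). The higher one was Csrp2, a LIM protein of smooth muscle, with 418 and 554 CPM in zoledronate at week 12 and week 4, against 257 and 336 CPM in control. The lower ones were Gsta1, a glutathione transferase, with 43.7 and 52.8 CPM against 90.1 and 98.4 CPM, and Ccnd1, for cyclin D1, with 32.9 and 49.2 CPM against 149 and 77.7 CPM.

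CGRP had 10 genes higher than zoledronate of 2216 (0.451%) and 17 lower (0.767%). Ptgr1, which reduces prostaglandin and lipid aldehyde substrates, had 133 and 239 CPM in CGRP at week 12 and week 4, against 39.6 and 56.7 CPM in zoledronate. Gsta1 had 119 and 195 CPM, against 43.7 and 52.8 CPM, and Fos 74.7 and 138 CPM, against 38.8 and 61.5 CPM. Among the lower genes, Hmcn1, for the matrix protein hemicentin, had 33.9 and 27.7 CPM in CGRP, against 102 and 113 CPM in zoledronate. Adarb1 had 47.2 and 33.9 CPM, against 131 and 91.9 CPM, and Cox6a2, a muscle form of a cytochrome oxidase subunit, had 105 and 44.5 CPM, against 253 and 97.8 CPM.

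Magnesium had 4 genes higher than zoledronate of 2225 (0.18%) and 2 lower (0.0899%). Fos had 87.6 and 134 CPM in magnesium at week 12 and week 4, against 38.8 and 61.5 CPM in zoledronate. Btg2, an antiproliferative immediate early gene, had 94.1 and 94.6 CPM against 56.2 and 41.7 CPM, and Ptgr1 148 and 88.2 CPM against 39.6 and 56.7 CPM. The lower genes were Anxa3, with 55.5 and 39.3 CPM against 196 and 61.0 CPM, and Wfdc1, which encodes a secreted protease inhibitor, with 602 and 288 CPM against 1253 and 437 CPM.

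Within Actg2-high cells the median log2 ratio of the 17 contractile genes at week 12 and week 4 was -0.12 and 0.20 for zoledronate over control, 0.15 and -0.21 for CGRP over zoledronate, and 0.11 and -0.12 for magnesium over zoledronate. The median over all genes tested in the same cells was -0.11 and 0.00, 0.02 and -0.03, and 0.07 and -0.00, so the value for zoledronate over control at week 12 lay at that of all genes. Single members differed more. For zoledronate over control, at week 12, 5 of the 17 had levels lower by 1.5-fold or more (12.2% of all genes tested had) and at week 4, 2 had levels higher by as much (1.55% of all genes). For CGRP over zoledronate, 4 were that much higher (9.24% of all genes) and 2 that much lower (7.45%) at week 12, and 3 were that much lower at week 4 (4.76%). For magnesium over zoledronate, 5 were that much higher at week 12 (9.75%) and 0 differed by that much at week 4. In Actg2-zero cells the medians of the list at week 12 and week 4 were 0.15 and 0.33, -0.29 and -0.41, and 0.05 and -0.10, in the same order of comparisons.

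Cell cycle genes differed between treatments at week 12 in both Actg2-high and Actg2-zero cells. In Actg2-high cells the median over the 20 genes was -1.99 for zoledronate over control. There 20 of 20 were at least 1.5-fold lower, as were 12.2% of all genes tested. The median was 1.08 for CGRP over zoledronate and 1.01 for magnesium over zoledronate. At week 4 those medians were -0.32, 0.56 and 0.03. In Actg2-zero cells the medians of the list were -2.25, 1.18 and 1.05 at week 12 and -0.63, 1.15 and 0.14 at week 4. Each of these was larger in size than in Actg2-high cells.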

How the data were processed

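The authors deposited 1 table of counts (UMIs per gene and cell barcode) per library. STAR and the genome build Rnor_6.0 are named in the submitters' processing notes without versions or roles; the annotation, cell calling and filters are not named there. Cells with at least 5000 UMIs were classed by their UMIs of Actg2, UMIs were summed per library and class without Actg2, and genes listed in all 8 tables with at least 10 UMIs in at least 8 of the 16 sums (10333 of 10848) were tested with edgeR 4.0.16 (quasi-likelihood, TMM factors, library as a block, 7 residual degrees of freedom) in R 4.3.3. The block pairs the classes because both come from the same library. DESeq2 1.42.0 was an alternative. CPM are UMIs per 1000000 of a sum, and single-library ratios add 1 CPM. Shares have 95% Clopper-Pearson and sums 95% Poisson intervals, which cover counting error only. Nothing in the labels says that cells of a library came from separate animals. Doublets were not called; cells over 40000 UMIs were left out as an alternative.

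Named by rule were up to 12 called genes each way with at least 20 CPM and 1 direction in 8 libraries, the contractile and actin lists, and the called genes and most abundant markers of the other lists; other genes were named as examples after their values were seen. The cells, gene lists and tests were chosen with earlier results of these data known. Promoters are from RefSeq (GRCr8), a different build from that of the counts, matched by symbol. The tests were tried on simulated counts. Alternatives covered normalization, filter, block, thresholds on Actg2 and depth, depth matching, each library left out and, added after seeing the data, the removal of shared barcodes. Results for some genes are not reported here.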

Additional observations from a re-analysis of the deposited data

How the results depend on the processing

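The library block decided the test between classes. With no replicate block, and so without pairing the classes of a library, edgeR called 0 genes higher and 0 lower. At an unadjusted p under 0.05 in that fit, 147 of 10333 genes were higher and 85 lower. Requiring at least 10 UMIs of Actg2 gave 67 higher and 61 lower, against 35 and 36. Leaving out 1 library at a time gave 27 to 46 higher and 24 to 41 lower, and 0 for the interaction with week, for which DESeq2 called 4. The remaining alternatives gave 29 to 41 higher and 26 to 41 lower. The genes called were not all the same. Of the 71 main calls, 41 were kept with the classes matched on UMIs per cell, where 9260 genes were tested. DESeq2 kept 55, a threshold of 3 UMIs of Actg2 kept 52, and leaving out 1 library kept 53 to 63.

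The thinned share required at least 2 UMIs of Actg2 among 5000, and the main share at least 5 at full depth, so they are unlike measures. Shares outside the interval of the main share were, after thinning, 6.64% and 13.1% in magnesium at week 12 and week 4 and 2.91% and 7.87% in CGRP. The others were 10.4% in zoledronate at week 4 and 7.15% in control at week 4. Among cells of 15000 to 25000 UMIs, the shares outside that interval were 14.5% in magnesium at week 4 and 9.71% in zoledronate at week 12. In CGRP they were 3.11% and 9.90% at week 12 and week 4. With TMM factors, 2 genes were higher for zoledronate over control and 1 lower for magnesium over zoledronate. The cause was not tested.

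For 34 named genes, 596 values under alternatives kept direction and call, 39 lost the call, 6 gained it and 0 reversed. Apart from the fit without the block, calls were lost for Adarb1, Tgfb3, Eln and Fabp4. Means under 5 CPM rest on few UMIs in the Actg2-high sums.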
